A study of Homo sapiens with 13 samples.

Results

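Keratins are the intermediate filament proteins of epithelial cells. The keratins described here are those of colon epithelium, chosen by gene symbol, and they comprise 8 genes of the 23886 symbols listed in each of 2 deposited comparison tables. The type II (basic) keratins were KRT7, KRT8 and KRT80, and the type I (acidic) keratins were KRT18, KRT19, KRT20, KRT15 and KRT23. Of the 8 genes, 7 had a mean of at least 10 normalised counts in each table, and KRT23 did not.

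A type I and a type II keratin pair as obligate heterodimers, and the dimers assemble into filaments that give an epithelial cell mechanical strength. KRT8 and KRT18 form the basic filament pair of simple epithelia such as the colon, with KRT19 as a further type I partner. KRT20 is a keratin of differentiated intestinal epithelium, made mainly by cells that have left the crypt base. KRT7 is mostly a keratin of ductal epithelia and is scarce in normal colon, KRT15 is best known from basal cells of stratified epithelia, and KRT80 is a less studied type II keratin found in many epithelia.

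RNA was sequenced from 13 samples of DLD-1 cells, an established line from a Dukes' type C colorectal adenocarcinoma, taken 72 h after transfection with 50 nM of siRNA. The siSOX9 group held 4 samples of cells given an siRNA against SOX9, a transcription factor of intestinal crypt cells, and was compared with 3 siCtrl samples given a control siRNA in the same 2 experiments. The first experiment held 3 siSOX9 and 2 siCtrl samples, and the second held 1 of each. The siY14 group held 4 samples given 1 of 2 siRNAs against Y14 (No 9 and No 10, 2 samples each), part of the exon junction complex that marks spliced mRNA, and was compared with 2 siCtrl samples of a further experiment. All groups share the same tumour line and transfection, and no untransfected group was analysed here. The labels do not say whether samples of a group were separate cultures, so each p-value reflects the spread among the samples at hand, which could be technical only.

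SOX9 itself averaged 9067 normalised counts in siSOX9 cells and 24468 in siCtrl cells (log2 fold change -1.43, DESeq adjusted p = 1.40e-04, authors' deposited table). In the siY14 experiment SOX9 averaged 15494 normalised counts in siY14 cells and 17802 in siCtrl cells (log2 fold change -0.20, adjusted p = 0.545, authors' deposited table). The gene of Y14, RBM8A, is listed at 0 in both arms of both tables, so the files hold no check of that knockdown. Estimated depth ranged between 24.8 and 184 M counts in siSOX9 libraries, 25.0 and 179 M in their siCtrl libraries, 49.5 and 71.6 M in siY14 libraries, and 47.2 and 67.1 M in theirs. The colon epithelial markers EPCAM, CDH1, VIL1, CDX2 and CDH17 were all well detected, with a summed mean over 7 markers of 87001 normalised counts in siSOX9 cells against 94663 in siCtrl cells, and 81104 in siY14 cells against 118053 in siCtrl cells. CDX1 averaged under 3 normalised counts in every group. The squamous, stromal, endothelial and immune markers KRT14, TP63, COL1A2, DCN, PECAM1, PTPRC and CD3E averaged at most 1.72 normalised counts in any group. Other markers on the same lists were higher, among them KRT10, KRT5, KRT13, COL1A1, PDGFRB, VWF, CD14 and CD68. Their values are given after the keratins.

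The tables give a mean per group, and whole reads of single libraries were recovered from those means where 1 set of reads fitted. Recovered libraries are lettered from the deepest (a) and cannot be tied to a named sample, an experiment or a Y14 siRNA, so no value within an experiment can be given. The tests made here on siSOX9 cells therefore pool both of their experiments with no term for experiment. Some libraries stood apart. Over 6914 genes, the deviation of siSOX9 library a from its group mean correlated with that of siCtrl library a (r = 0.859), and these 2 libraries were also the deepest. Among siY14 libraries, a deviated with c (r = 0.888) and b with d (r = 0.886) over 5952 genes, and the members' values are therefore also given by these pairs.

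KRT20 was the member called in both experiments, higher in siSOX9 cells and lower in siY14 cells. It lies on chromosome 17 with the other type I members except KRT18, while KRT18 and the type II members lie on chromosome 12. RefSeq promoter windows were matched for 2 of the 8 members, KRT8 and KRT20, and the KRT20 window is shown because KRT20 is the member the results turn on. It spans the 250 bases before the annotated start, on the minus strand of GRCh38.p14 at chr17:40885243-40885492, with capitals marking the CDX core word TTTATG read on the opposite strand:

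KRT20 upstream window: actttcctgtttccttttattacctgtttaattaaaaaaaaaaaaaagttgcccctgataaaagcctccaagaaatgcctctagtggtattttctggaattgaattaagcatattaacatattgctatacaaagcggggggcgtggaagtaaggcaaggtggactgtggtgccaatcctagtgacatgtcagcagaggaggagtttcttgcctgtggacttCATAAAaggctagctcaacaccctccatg

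The word begins 29 bases before the start, and it occurs on either strand in 3386 of 35116 RefSeq promoter windows of this length (9.64%). Both strands were also searched for the SOX core word ATTGTT, found in 8.98% of windows, and for the TCF/LEF core word CTTTGA, found in 11.2%. The AP-1 word TGANTCA was found in 6.57% of windows, the GC box word GGGCGG in 42.6% and the TATA box word TATAAA in 10.7%. None of these other words is in the KRT20 window, and none of the 6 words is in the KRT8 window. These matches describe letters only and say nothing of the binding of a factor.

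The order of keratin levels was set by the simple-epithelial pair. Levels between genes are given as mean normalised counts per 1000 bases of transcript, from the authors' deposited arm means and GENCODE 29 lengths. In siCtrl cells of the siSOX9 experiment the level per 1000 bases was 79693 for KRT8, 70628 for KRT18 and 16301 for KRT19. It was 1113 for KRT80, 122 for KRT7, 55.7 for KRT20, 13.5 for KRT15 and 1.57 for KRT23. Together KRT8 and KRT18 made up 89.6% of the members' normalised counts in siSOX9 cells and 89.8% in siCtrl cells, and 90.8% in siY14 cells and 91.2% in siCtrl cells.

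In siSOX9 cells KRT20 and KRT7 changed places. KRT20 stood at 124 ± 12.4 per 1000 bases and KRT7 at 47.5 ± 11.3 in siSOX9 cells (SD, n = 4), against 55.7 ± 3.83 for KRT20 and 122 ± 20.4 for KRT7 in siCtrl cells (SD, n = 3). Library values of the 2 genes did not overlap in either group. In siY14 cells KRT20 stood at 12.7 ± 5.09 per 1000 bases (SD, n = 4) and KRT7 at 49.4 ± 17.2, again without overlap, whereas in the siCtrl cells of that experiment KRT7 (57.4 and 71.0) and KRT20 (51.1 and 58.7) overlapped. KRT8 and KRT18 were neighbours whose order depended on the experiment, with KRT18 above KRT8 per 1000 bases in both groups of the siY14 table and below it in both groups of the siSOX9 table. That order is uncertain, since 39.7% of the 50-base words of the KRT8 transcript and 35.1% of those of KRT18 also occur in transcripts of other genes, among them the pseudogenes KRT8P3 and KRT18P11. For the remaining members the shared part was at most 1.79% (KRT19), and for KRT20 and KRT23 it was 0. The annotated spans of KRT8 and KRT18 also overlap each other on chromosome 12, and how reads there were counted is not given.

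**Figure D1:**
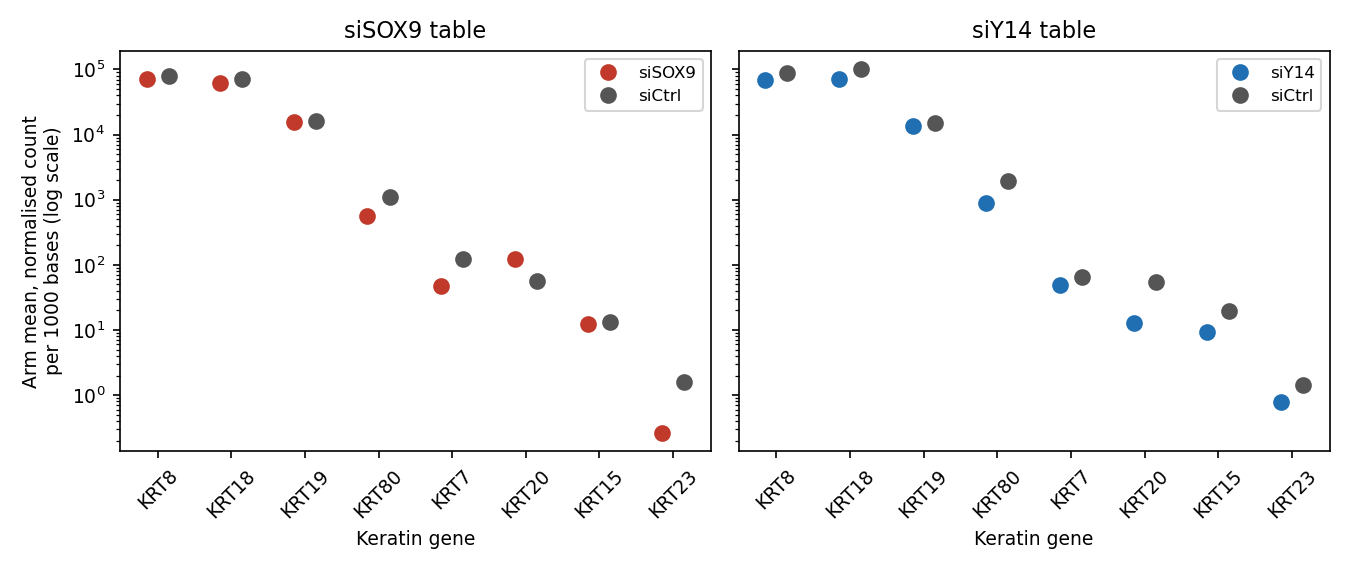
Mean normalised count per 1000 bases of transcript (log axis) of each keratin in siSOX9 (red) and siCtrl (grey) cells, left, and in siY14 (blue) and siCtrl (grey) cells, right. KRT8 and KRT18 lie at the top in every group, and KRT20 is above KRT7 in siSOX9 cells (124 against 47.5) but below it in siCtrl cells (55.7 against 122).

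Among the type II members, KRT7 and KRT80 were lower in siSOX9 cells and KRT8 was not called. The authors' deposited table called 650 of 18747 genes with reads at an adjusted p under 0.05 (3.47%), with 1.19% higher and 2.27% lower, and it called 3 of the 8 keratins, 1 higher and 2 lower. Among the 13649 genes with a mean of at least 10 it called 4.69%. The median log2 fold change of the 7 members with a mean of at least 10 was -0.18, against 0.01 over all genes with such a mean. Of the 7 colon epithelial markers, VIL1 (villin, of the brush border) was called lower in siSOX9 cells, at 1930 normalised counts against 4416 in siCtrl cells (log2 fold change -1.19, DESeq adjusted p = 5.84e-08, authors' deposited table). Its part in the keratin values was not tested.

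KRT7, a ductal type II keratin, had 58.7, 106, 89.3 and 78.7 normalised counts in siSOX9 libraries a to d, against 179, 251 and 214 in siCtrl libraries a to c. Every siSOX9 library lay below every siCtrl library, and the groups did not overlap for 31.0% of the 8714 genes with recovered reads and a mean of at least 10 in this table. KRT7 averaged 83.2 ± 19.9 in siSOX9 cells (SD, n = 4) and 214 ± 35.8 in siCtrl cells (SD, n = 3), and fell by 1.37 (log2) in the authors' deposited table (DESeq adjusted p = 9.60e-06). With limma-voom on the recovered reads the log2 fold change was -1.45 (SE 0.22, adjusted p = 0.00129). That test called 29.4% of those genes. Without the deepest library of each group the log2 fold change was -1.33 (adjusted p = 1.68e-07). This fit was chosen after seeing the data and called 31.0% of those genes. Its smaller adjusted p is not firmer evidence, as the fits estimate the spread from different libraries.

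KRT80 had 1994, 2199, 2270 and 2139 normalised counts in siSOX9 libraries a to d, against 4318, 4151 and 4421 in siCtrl libraries a to c. The groups did not overlap, as was the case for 31.0% of the 8714 genes with recovered reads and a mean of at least 10. The spread within each group was small. KRT80 averaged 2150 ± 117 in siSOX9 cells (SD, n = 4) and 4297 ± 136 in siCtrl cells (SD, n = 3). The log2 fold change in the authors' deposited table was -0.999 (DESeq adjusted p = 7.25e-07). By limma-voom the log2 fold change was -1.10 (SE 0.03, adjusted p = 1.23e-07), in a test that called 29.4% of the 8714 genes. Without the deepest library of each group it was -0.95, in a fit that called 31.0% of them.

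KRT8, the main type II keratin, averaged 123635 normalised counts in siSOX9 cells and 139861 in siCtrl cells (log2 fold change -0.18, DESeq adjusted p = 0.936, authors' deposited table) and did not pass the test. As a share of type II counts per 1000 bases, KRT80 made up 0.784% in siSOX9 cells and 1.38% in siCtrl cells.

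Among the type I members, KRT20 was higher in siSOX9 cells and the others were not called. KRT20 had 216, 245, 194 and 207 normalised counts in siSOX9 libraries a to d, against 102, 99.4 and 89.3 in siCtrl libraries a to c. These values came from 773, 198, 115 and 100 reads in siSOX9 cells and 351, 73 and 43 reads in siCtrl cells. All siSOX9 libraries lay above all siCtrl libraries. The groups did not overlap for 31.0% of the 8714 genes with recovered reads and a mean of at least 10.

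KRT20 averaged 215 ± 21.5 in siSOX9 cells (SD, n = 4) and 96.8 ± 6.66 in siCtrl cells (SD, n = 3), and rose 2.22-fold in the authors' deposited table (log2 fold change 1.15, DESeq adjusted p = 4.24e-04). The limma-voom estimate was 1.12 (SE 0.13, adjusted p = 2.74e-04), and 1.18 (adjusted p = 8.74e-06) without the deepest library of each group. These fits called 29.4% and 31.0% of the 8714 genes, and the smaller adjusted p of the second is not firmer evidence. KRT20 remained a small part of type I keratin mRNA, at 0.161% of type I counts per 1000 bases in siSOX9 cells and 0.0641% in siCtrl cells.

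KRT18, the partner of KRT8, averaged 86786 normalised counts in siSOX9 cells and 100292 in siCtrl cells (log2 fold change -0.21, DESeq adjusted p = 0.760, authors' deposited table). KRT19, a type I keratin of simple epithelia, averaged 21972 in siSOX9 cells and 22658 in siCtrl cells (log2 fold change -0.04, DESeq adjusted p = 1, authors' deposited table). Its siCtrl libraries alone ran between 18946 and 25177 normalised counts, a wider range than the difference between the group means.

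KRT15, a type I keratin of basal cells, had 39.1, 27.2, 30.3 and 22.8 normalised counts in siSOX9 libraries a to d, against 31.9, 38.1 and 27.0 in siCtrl libraries a to c. The groups overlapped, and the log2 fold change of -0.12 did not pass the test in the authors' deposited table (DESeq adjusted p = 1). The sign was not stable: it was 0.03 by limma-voom (SE 0.23, adjusted p = 0.945) and 0.30 between the deepest siSOX9 and siCtrl libraries.

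KRT23, a type I keratin known from gut and other epithelia, was barely detected, with 3, 1, 0 and 0 reads in siSOX9 libraries a to d and 11, 3 and 1 reads in siCtrl libraries a to c. Its adjusted p was 1 in the authors' deposited table, and no change can be read at this depth. Type II over type I counts per 1000 bases stood at 0.922 in siSOX9 cells and 0.930 in siCtrl cells. The members as a whole took 0.456% of all normalised counts in siSOX9 cells and 0.516% in siCtrl cells.

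**Figure D2:**
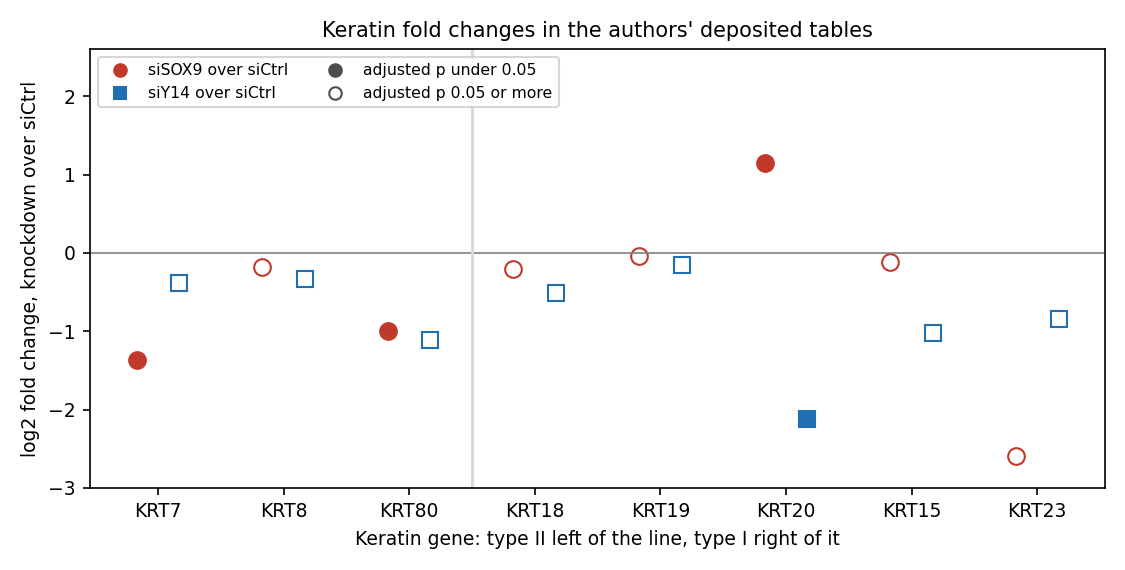
Log2 fold change of each keratin, knockdown over siCtrl, in the authors' deposited tables, for siSOX9 (red circles) and siY14 (blue squares). Filled symbols have an adjusted p under 0.05. KRT20 lies at 1.15 with siSOX9 and -2.12 with siY14, while KRT80 lies near -1 in both, filled for siSOX9.

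In siY14 cells every member with a mean of at least 10 had a value below its siCtrl value, and KRT20 was the member called. The authors' deposited table called 1622 of 17706 genes with reads (9.16%), with 3.81% higher and 5.35% lower, and it called 1 of the 8 keratins, lower. Among the 13444 genes with a mean of at least 10 it called 12.0%. The median log2 fold change of the 7 members with a mean of at least 10 was -0.51, against -0.00 over all genes with such a mean. Colon epithelial markers moved beside them: 4 of 7 (CDH1, VIL1, LGALS4 and CDH17) were called lower in siY14 cells and none higher. Their part in the keratin values was not tested, and fewer transcripts per cell and fewer cells of one kind cannot be told apart in bulk RNA.

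KRT20 had 31.2, 13.8, 27.9 and 15.1 normalised counts in siY14 libraries a to d, against 88.7 and 102 in siCtrl libraries a and b. These came from 39, 17, 25 and 13 reads in siY14 cells and 99 and 80 reads in siCtrl cells. All 4 siY14 libraries lay far below both siCtrl libraries. The groups did not overlap for 59.6% of the 8118 genes with recovered reads and a mean of at least 10.

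KRT20 averaged 22.0 ± 8.83 in siY14 cells (SD, n = 4) and 95.3 ± 9.35 in siCtrl cells (SD, n = 2), and fell by 2.12 (log2) in the authors' deposited table (DESeq adjusted p = 9.18e-08). By limma-voom the log2 fold change was -2.16 (SE 0.32, adjusted p = 0.00452). That call was lost without siCtrl library a (log2 fold change -2.27, adjusted p = 0.0779) and when siY14 libraries were summed in the pairs that deviate together (-2.18, adjusted p = 0.115). Those fits called few genes in all, 1.72% of 8118 genes without siCtrl library a and 0.456% with the pairs summed, against 27.0% with all libraries separate. Both pairs lay below siCtrl cells, libraries a and c at a mean of 29.6 and libraries b and d at 14.5, against 95.3 in siCtrl cells.

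KRT15 had 27.2, 20.4, 23.4 and 19.7 normalised counts in siY14 libraries a to d, against 46.6 and 45.9 in siCtrl libraries a and b. The groups did not overlap, as was the case for 59.6% of the 8118 genes with recovered reads and a mean of at least 10 in this table. The log2 fold change of -1.03 did not pass the test in the authors' deposited table (DESeq adjusted p = 0.0713). It passed with limma-voom (-1.02, SE 0.21, adjusted p = 0.0148), and did not with the libraries summed in pairs (-1.03, adjusted p = 0.169), without siCtrl library a (-1.01, adjusted p = 0.174) or without siCtrl library b (-1.03, adjusted p = 0.0916).

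The other type I members were not called. KRT18 averaged 101452 normalised counts in siY14 cells and 144518 in siCtrl cells (log2 fold change -0.51, DESeq adjusted p = 0.370, authors' deposited table), and its siCtrl libraries were close together at 143955 and 145080. KRT19 averaged 18989 in siY14 cells and 21192 in siCtrl cells (log2 fold change -0.16, DESeq adjusted p = 0.683, authors' deposited table). KRT23 again had few reads, 3, 2, 2 and 0 in siY14 libraries a to d and 2 and 3 in siCtrl libraries a and b.

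Of the type II members, KRT80 had the lowest value relative to siCtrl, and it did not pass the test. It averaged 3493 normalised counts in siY14 cells and 7548 in siCtrl cells in the authors' deposited table (log2 fold change -1.11, DESeq adjusted p = 0.0808). Its siCtrl libraries were at 7658 and 7437, but 22 sets of reads fit the siY14 mean, and in 17 of these all 4 siY14 libraries lay below both siCtrl libraries. Over the 8118 genes with recovered reads and a mean of at least 10, the groups did not overlap for 59.6%. The 5 sets in which the groups overlap held 1.04% of the posterior weight, under a model that favours even values within a group.

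KRT7 had 116, 53.8, 108 and 68.4 normalised counts in siY14 libraries a to d, against 125 and 101 in siCtrl libraries a and b. The groups overlapped, and the siY14 libraries were uneven, with a mean of 112 for libraries a and c and 61.1 for libraries b and d, against 113 in siCtrl cells. The log2 fold change of -0.38 did not pass the test in the authors' deposited table (DESeq adjusted p = 0.582), nor did the limma-voom value of -0.46 (SE 0.33, adjusted p = 0.329).

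KRT8 averaged 122344 normalised counts in siY14 cells and 154679 in siCtrl cells (log2 fold change -0.34, DESeq adjusted p = 0.667, authors' deposited table). The ratio of KRT8 to KRT18 counts was 1.21 in siY14 cells and 1.07 in siCtrl cells, and type II over type I counts per 1000 bases stood at 0.830 in siY14 cells and 0.770 in siCtrl cells. The members took 0.430% of all normalised counts in siY14 cells and 0.546% in siCtrl cells.

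**Figure D3:**
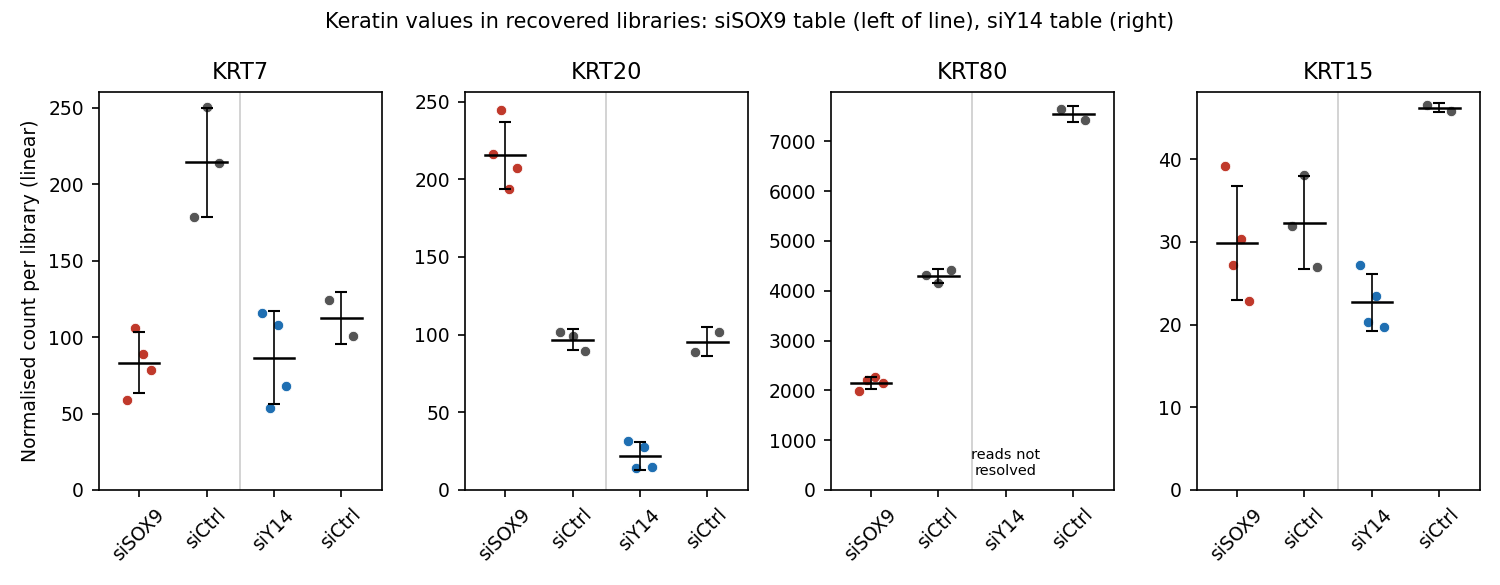
Normalised counts of KRT7, KRT20, KRT80 and KRT15 in single recovered libraries (points), with the mean (bar) and SD (whiskers) of each group, for siSOX9 and siCtrl cells left of the line and siY14 and siCtrl cells right of it. KRT20 is above its siCtrl libraries in all 4 siSOX9 libraries and below them in all 4 siY14 libraries, and KRT80 has no siY14 points because its reads were not resolved.

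The effects of the knockdowns were set against each other in 1 limma-voom model over all 13 libraries, with each knockdown compared with its own siCtrl cells. The model called 1636 of 7016 genes (23.3%) as differing in effect. For KRT20 the siSOX9 effect minus the siY14 effect was 3.29 on the log2 scale (SE 0.32, adjusted p = 1.96e-05), and it was called whichever of the 13 libraries was left out. The model takes the siY14 libraries as independent, and with them summed in pairs the KRT20 difference was 3.30 (adjusted p = 2.51e-04). For KRT15 it was 1.02 (SE 0.33, adjusted p = 0.0377), a call that was lost on leaving out any of 8 of the 13 libraries, with values between 0.78 and 1.13 and adjusted p between 0.0305 and 0.157. Those libraries were siSOX9 library a, siCtrl libraries a and c of the siSOX9 table, siY14 libraries b, c and d, and both siCtrl libraries of the siY14 table. With the siY14 pairs summed the KRT15 call was also lost (1.04, adjusted p = 0.0866). For KRT7 it was -0.98 (SE 0.41, adjusted p = 0.102) and did not pass the test, although it did without siY14 library b (-1.21, adjusted p = 0.0392) and with a term for the deepest pair of the siSOX9 table (-1.01, adjusted p = 0.0467). Those fits called 19.4% and 32.5% of the 7016 genes. KRT80, KRT8, KRT18 and KRT19 lacked recovered reads in at least 1 group, so their difference in effect was not tested.

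KRT20 was not alone in its opposite calls. Of the 224 genes called higher in siSOX9 cells in the authors' deposited tables, 20 (8.93%) were called lower in siY14 cells, which is 2.12% of the 943 genes called lower there among shared symbols. Over all genes with reads, 5.35% were called lower in siY14 cells. That share and the 8.93% are over unlike sets. Of the 650 genes called in siSOX9 cells, 640 had a mean of at least 10. Among genes with such a mean 12.0% were called in siY14 cells in either direction, against 9.16% over all genes with reads. With at least a 2-fold change in each direction, 3 genes remained, KRT20, GPR137C and SESN3, which is 2.59% of 116 genes higher in siSOX9 cells and 1.88% of 160 genes lower in siY14 cells. Those 116 and 160 genes come from 18747 genes with reads in the siSOX9 comparison and 17706 in the siY14 comparison. Among 13186 genes compared over the 2 log2 fold changes, the gene nearest to KRT20 was REG4 (0.87 with siSOX9 and -1.62 with siY14, a distance of 0.57), followed by DLX3 and SMAD9 at 0.59 and 0.70. KRT7 and KRT80 had much closer neighbours, LINC00704, AKR1C1 and TP53I11 within 0.031 of KRT7, and SYNPO at 0.032 from KRT80.

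Other keratins were mostly silent or scarce. Of 47 further keratin symbols, the siSOX9 table gave 27 some reads and 4 had a mean of at least 10, of which KRT2 and KRT36 were called higher in siSOX9 cells. Both reached that mean only through the siSOX9 group, so their direction among the genes that passed was set by the filter. KRT36, a type I keratin known from hair and nail, averaged 18.2 ± 5.51 normalised counts in siSOX9 cells (SD, n = 4) and 2.37 ± 0.327 in siCtrl cells (SD, n = 3), from 74, 20, 9 and 6 reads in siSOX9 libraries and 8, 2 and 1 in siCtrl libraries (log2 fold change 2.94, DESeq adjusted p = 0.00269, authors' deposited table). KRT2, a type II keratin of upper epidermis, averaged 18.5 ± 1.34 in siSOX9 cells and 2.72 ± 2.35 in siCtrl cells (log2 fold change 2.77, DESeq adjusted p = 0.0226, authors' deposited table). Both lie at the low end of the counts, near the limit of 10 where small numbers of reads set the values.

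In siY14 and siCtrl cells 23 of the 47 had reads and 3 had a mean of at least 10, and KRT10 was called. KRT10, a type I keratin of suprabasal epidermis, averaged 734 ± 36.2 in siY14 cells (SD, n = 4) and 1083 ± 10.7 in siCtrl cells (SD, n = 2), and fell by 0.56 (log2) in the authors' deposited table (DESeq adjusted p = 0.0276). By limma-voom it was also called (-0.56, adjusted p = 0.00374), but not with siY14 libraries summed in pairs (-0.55, adjusted p = 0.121) or without siCtrl library a (-0.55, adjusted p = 0.115). Of 15 other intermediate filament genes, none was called in siSOX9 cells, and SYNM (log2 fold change -0.99, DESeq adjusted p = 0.0460) was called lower in siY14 cells in the authors' deposited table. The mesenchymal filament gene VIM averaged 16.1 normalised counts in siSOX9 cells against 19.9 in siCtrl cells, and 13.4 in siY14 cells against 22.7 in siCtrl cells, and was not called in either table.

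**Figure D4:**
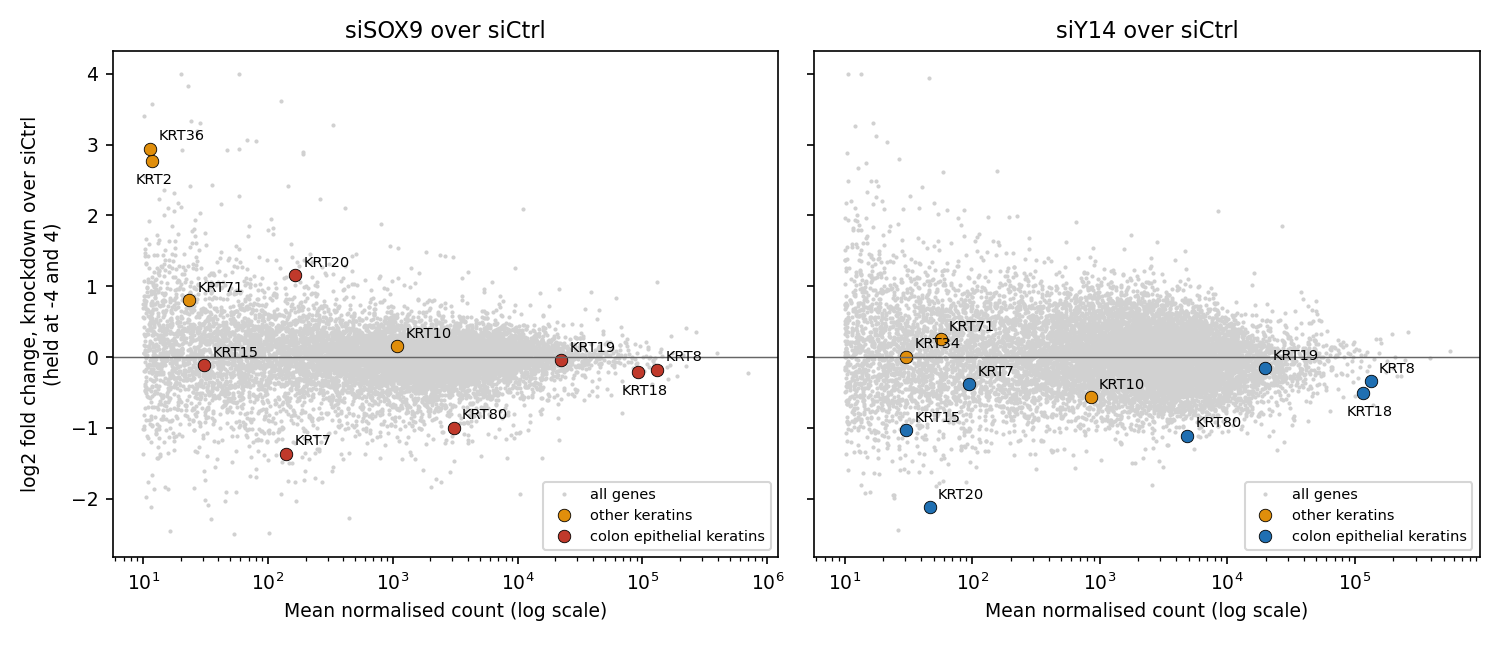
Log2 fold change, knockdown over siCtrl, against mean normalised count (log axis) for all genes with a mean of at least 10 (grey), the colon epithelial keratins (red or blue) and other keratins (orange), for siSOX9 left and siY14 right. KRT8, KRT18 and KRT19 lie at the high end of counts near 0, while KRT2 and KRT36 lie at the low end, at 2.77 and 2.94.

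Of 17 genes that anchor keratin filaments at junctions or link them to other structures, 16 had a mean of at least 10 in each comparison. Among all genes with such a mean, 4.69% were called in siSOX9 cells and 12.0% in siY14 cells. EPPK1 (epiplakin, a keratin-binding cytolinker) rose by 1.13 and ITGB4 (a hemidesmosome integrin) fell by 0.84 (log2) in siSOX9 cells, per the authors' deposited table, and no other of the 17 was called there. In siY14 cells PKP3 (a desmosomal plakophilin) rose by 0.65 and FAM83H (a keratin-binding protein) by 0.54, while DSC2 (a desmosomal cadherin) fell by 0.88 and ITGA6 (the partner of ITGB4) by 1.11. The desmosomal linker DSP averaged 12528 normalised counts in siSOX9 cells against 12869 in siCtrl cells, and 19567 in siY14 cells against 20148 in siCtrl cells.

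Of 16 transcription factors known in colon epithelium or at keratin genes, 13 had a mean of at least 10 in each comparison. The calls over all genes with such a mean were again 4.69% in siSOX9 cells and 12.0% in siY14 cells. FOS rose by 1.18 and KLF4 fell by 0.90 and ELF3 by 0.60 (log2) in siSOX9 cells, per the authors' deposited table. In siY14 cells KLF5, a factor of crypt cells, fell by 0.56 and no other of the 16 was called. The intestinal factor CDX2 averaged 14545 normalised counts in siSOX9 cells and 12082 in siCtrl cells (log2 fold change 0.27, DESeq adjusted p = 1, authors' deposited table), and 7255 in siY14 cells and 7413 in siCtrl cells (log2 fold change -0.03).

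Markers of other cell types were not all at 0. The summed mean of 7 squamous markers was 1151 normalised counts in siSOX9 cells against 1023 in siCtrl cells, and 745 in siY14 cells against 1105 in siCtrl cells, nearly all from KRT10. KRT10 itself averaged 1127 in siSOX9 cells against 1013 in siCtrl cells. KRT5 averaged 13.4 in siSOX9 cells against 5.38 in siCtrl cells, and 5.96 in siY14 cells against 7.86 in siCtrl cells. KRT13 averaged 7.92 in siSOX9 cells against 3.21 in siCtrl cells, and 4.31 in siY14 cells against 10.2 in siCtrl cells. For 5 fibroblast markers the sums were 151 in siSOX9 cells against 137 in siCtrl cells, and 63.1 in siY14 cells against 116 in siCtrl cells. COL1A1 (log2 fold change 1.28) and COL3A1 (4.20) were called higher in siSOX9 cells and PDGFRB (-0.88) lower. COL1A1 averaged 82.6 in siSOX9 cells against 34.1 in siCtrl cells, and COL3A1 11.9 against 0.647. PDGFRB averaged 55.8 in siSOX9 cells against 103 in siCtrl cells. In siY14 cells COL1A1 averaged 18.3 against 24.5 in siCtrl cells, and PDGFRB 42.7 against 91.0, neither called. The endothelial list of 3 genes had a sum of at most 38.6 in any group, and no member was called. VWF averaged 31.1 in siSOX9 cells against 38.4 in siCtrl cells, and 23.3 in siY14 cells against 28.9 in siCtrl cells. Of the immune markers, CD14 averaged 72.8 in siSOX9 cells against 99.9 in siCtrl cells, and 52.9 in siY14 cells against 49.9 in siCtrl cells. CD68 averaged 82.5 in siSOX9 cells against 70.2 in siCtrl cells, and 77.0 in siY14 cells against 76.6 in siCtrl cells, and neither gene was called. The part of these markers in the keratin values was not tested.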

How the data were processed

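The authors deposited 2 DESeq comparison tables. Per the file headers, each gives per gene a mean signal over all libraries and per arm, which is a read count divided by a size factor per library. Per the file headers each also gives the ratio of both arms as a fold change and as a log2 value, and a p-value with an adjusted p-value. The submitters' processing notes name TopHat2, Bowtie, HISAT2, SAMtools, HTSeq and DESeq with hg19. Versions and strand settings are not given in the sources used here. Calls use the authors' adjusted p under 0.05.

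Each library's whole reads were solved for from its arm's mean, printed to 15 significant digits, where 1 set of whole numbers had nearly all of the probability, for 13812 of 18747 genes with reads (siSOX9 table) and 12380 of 17706 (siY14 table). On simulated arm means, 1652 of 2000 were accepted with 0 wrong for siSOX9, and 1644 of 2000 with 1 wrong for siY14. As the tables hold no counts, the planned count test was replaced by limma-voom (limma 3.58.1, R 4.3.3) on recovered reads (genes averaging at least 10), with Benjamini-Hochberg adjustment. On simulated reads over 8714 genes for siSOX9, it recovered 94 of 96 genes changed 2-fold, 104 of 104 changed 4-fold, and made 8 false calls. Over 8118 genes for siY14 100 of 111 genes set to a 2-fold change were found, as were 89 of 89 set to a 4-fold change, beside 7 false ones. The simulated libraries were independent and had the same dispersion for every gene. Some real libraries deviated together, so these counts do not give the rate of false calls in the real data. Python 3.11.15 was used for the other steps, and the number of unused columns holding single samples was 0.

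Every member is named. Members of other lists are named where called or defining, or as markers given with their level. Neighbours are the 3 nearest genes by distance over both log2 fold changes. Members and lists were chosen with earlier results of these data known. Alternatives were an adjusted p of 0.1, adjustment over genes averaging at least 10, limma-voom, TMM factors, pseudocounts of 1 and 10, centring on the median, levels without length and leaving out each library. One list of markers is not reported here in full.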

Additional observations from a re-analysis of the deposited data

Results flagged for a closer look

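The difference in effect between knockdowns passed its test for 2 members, and KRT7, KRT20 and KRT15 were the only members that could be tested. For KRT20, the siSOX9 effect minus the siY14 effect was 3.29 on the log2 scale (limma-voom adjusted p = 1.96e-05), with all 4 siSOX9 libraries above and all 4 siY14 libraries below their siCtrl libraries. For KRT15 it was 1.02 (limma-voom adjusted p = 0.0377), with siSOX9 libraries overlapping their siCtrl libraries and all 4 siY14 libraries below theirs. The model called 23.3% of genes as differing in effect. Over genes with recovered reads and a mean of at least 10, siSOX9 and siCtrl libraries did not overlap for 31.0%. For siY14 and siCtrl libraries that share was 59.6%. With siY14 libraries summed in pairs the KRT20 call was kept (adjusted p = 2.51e-04) and the KRT15 call was lost (adjusted p = 0.0866). On leaving out 1 library the KRT15 call was kept in only 5 of 13 fits.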

How the results depend on the processing

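Of 159 recomputed counts and tested values, 123 kept their size or their direction and side of the threshold. A further 48 values, with pseudocounts or centring, had no test and kept their sign, which a pseudocount cannot change. The count of 3 keratins called in siSOX9 cells was the same in every limma-voom fit that left out 1 library. The only members with a mean of at least 10 that those fits could call were KRT7, KRT80, KRT20 and KRT15. Those fits called between 1161 (without siCtrl library a) and 2526 (without siSOX9 library a) of 8714 genes. The count in siY14 cells, 1 by the authors' test, was 3 at an adjusted p of 0.1, 2 by limma-voom and with TMM factors, 0 with siY14 libraries summed in pairs, and between 0 and 2 when 1 library was left out. By limma-voom 3 members with a mean of at least 10 (KRT7, KRT20 and KRT15) could be called there, and the summed pairs called 37 of 8118 genes and the fit without siCtrl library a 140. KRT15 in siSOX9 cells changed sign, with a log2 fold change of 0.027 by limma-voom, 0.030 with TMM factors and 0.10 with a term for the deepest pair, and between -0.24 and 0.10 when 1 library was left out. The difference in effect ranged between -1.21 and -0.65 for KRT7 and between 0.78 and 1.13 for KRT15 when 1 library was left out. It was -1.01 for KRT7 with a term for the deepest pair, now called, and 1.04 for KRT15 with siY14 pairs summed, no longer called. Those fits called 32.5% and 14.9% of 7016 genes. Without length, 2 members (KRT8 and KRT18) changed rank in the siCtrl cells of the siY14 table. Where a fit left 1 siCtrl library, that library was assumed to vary like the others. The cause of these changes was not tested. No paired analysis was possible because the deposited columns are arm means with no sample numbers. The fit with a term for the deepest pair called 52.2% of 8714 genes, against 29.4% without the term. With that term for the deepest siSOX9 and siCtrl libraries, which deviate together, all 3 calls in siSOX9 cells were kept. The fits without that pair, with a term for it and with summed pairs were chosen after seeing the data. Depth limits the scarce members: KRT20 rests on 13 to 39 reads and KRT15 on 17 to 34 reads in each siY14 library.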
